A study of Mus musculus with 20 samples.

Results

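The genes that carry proteins into the endoplasmic reticulum (ER) and remove their signal peptides were followed in mouse ventral prostate with and without testosterone. A list of 32 symbols named the members: the signal recognition particle (SRP), its receptor, the Sec61 channel with Sec62 and Sec63, the translocon-associated protein (TRAP) complex, the signal peptidase, the TRAM proteins, Hspa13 and the factors that insert tail-anchored proteins. Of these, 31 were present by symbol among the 43472 genes of the count table, and 30 had enough counts to test. The symbol Camlg was not found, although the table holds Caml, of which RefSeq gives Camlg as a synonym. Srp54a was present but had 4 counts in the 20 libraries together. The list was drawn up with earlier results of these data known, and no cutoff on the values was used to pick members. The lowest library value of a tested member was 76.7 normalized counts, so none passed the minimum of 10 through a single group.

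Newly made secretory and membrane proteins enter the ER through this machinery. SRP binds the signal sequence as it leaves the ribosome and docks at the SRP receptor, the chain is threaded through the Sec61 channel, and signal peptidase cuts the signal off on the lumenal side. Proteins with a single anchor at their end take another path, in which Bag6 and Get4 hand the chain to the ATPase Asna1 (also called TRC40 or Get3) and Wrb receives it at the ER membrane. The ventral prostate is a secretory gland whose luminal cells export large amounts of protein into the seminal fluid when androgen is present.

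The series holds 4 groups of 5 libraries. They are ARNoC/Y males given testosterone, WT (C57BL/6J) males given testosterone, ARNoC/Y males given vehicle and WT males given vehicle. All of the males had been orchidectomised, so that the testes no longer supplied androgen, and replacement or vehicle lasted 4 days. ARNoC names the mutant allele, written over Y in males. The labels do not describe the change that it makes, and the sources used here give neither the age nor the background strain of these males, so genotype could not be checked from gene counts. RNA came from whole frozen ventral prostate, and nothing in the labels states that the 5 libraries of a group are 5 animals; p-values therefore measure the spread between these libraries. In whole tissue, fewer cells of a type and less RNA per cell cannot be told apart.

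Libraries held 8861646 to 21600352 counts. The 10 genes with the most counts held 18.4% to 20.8% of each total in ARNoC libraries with testosterone and 21.4% to 28.1% in WT libraries with testosterone, against 6.81% to 10.4% in ARNoC and 7.99% to 9.56% in WT libraries with vehicle. The ventral prostate genes Spink3 and Pbsn were detected in every library, and seminal vesicle markers were at or near 0, with summed normalized counts of 5 genes no higher than 50.7. Values below are normalized counts, that is counts divided by the size factor of the library, in the order of replicates 1 to 5, whose numbers name libraries and pair nothing. Tests are edgeR quasi-likelihood tests over 15261 genes with Benjamini-Hochberg adjustment, called at 0.05, and log2 differences are given ± 1 SE. Of the members, 12 share exon bases with another annotated gene and 6 share more than 10% of their 50-base stretches with other genes, and whether the counting used strand is not stated in these sources. These genes (Srp9, Srpr, Srprb, Sec61a1, Sec61a2, Sec62, Sec63, Ssr2, Spcs1, Spcs3, Sec11a and Wrb for exons, Srp54a, Srp54b, Srpr, Srprb, Sec61b and Sec61g for sequence) are uncertain to that extent.

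Testosterone was accompanied by higher transcript levels of most of the machinery in both genotypes. In ARNoC prostates 23 of the 30 tested members rose and 0 fell, where over all genes 19.4% were called higher and 16.8% lower. In WT prostates 26 of 30 rose and 0 fell, where over all genes 20.4% were called higher and 18.8% lower. The median log2 difference of the members was 0.46 in ARNoC and 0.61 in WT, beside medians of -0.01 and -0.02 over all genes tested in ARNoC and in WT. In ARNoC, 20 members had every testosterone library above every vehicle library, where 12.4% of all genes did. In WT this held for 22 members, where 15.2% of all genes did. A called rise of at least 2-fold was reached by 4 members in ARNoC (Ssr4, Sec11c, Sec61g and Sec61b) and by 5 in WT (the same 4 and Spcs3). Of all 15261 genes, 778 reached it in ARNoC and 769 in WT. The summed share of the members in all counts is a scaling by library totals and weighs the abundant members most. With testosterone it was 0.615% to 0.687% in ARNoC and 0.608% to 0.686% in WT. With vehicle it was 0.499% to 0.582% in ARNoC and 0.455% to 0.536% in WT.

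The scale matters for the small responses. When counts were divided by library totals alone, the median log2 difference of all genes was -0.36 in ARNoC and -0.44 in WT, and the share of the 10 leading genes was higher with testosterone, as given above. On that scale 14 members were called higher and 5 lower (Srp14, Sec61a2, Sec62, Asna1 and Bag6) in ARNoC, where 1178 of all 15261 genes were called higher and 7548 lower. In WT 15 members were called higher and 3 lower (Sec62, Asna1 and Bag6), where 1099 of all genes were called higher and 9120 lower. TRAP, the SRP receptor, Sec61a1, Sec61b, Sec61g, Hspa13, Sec11c and the Spcs subunits were called higher in both genotypes under that scaling. Tram1, Srp9 and Srp19 also had positive differences in both, of which only that of Tram1 in WT was called.

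**Figure D1:**
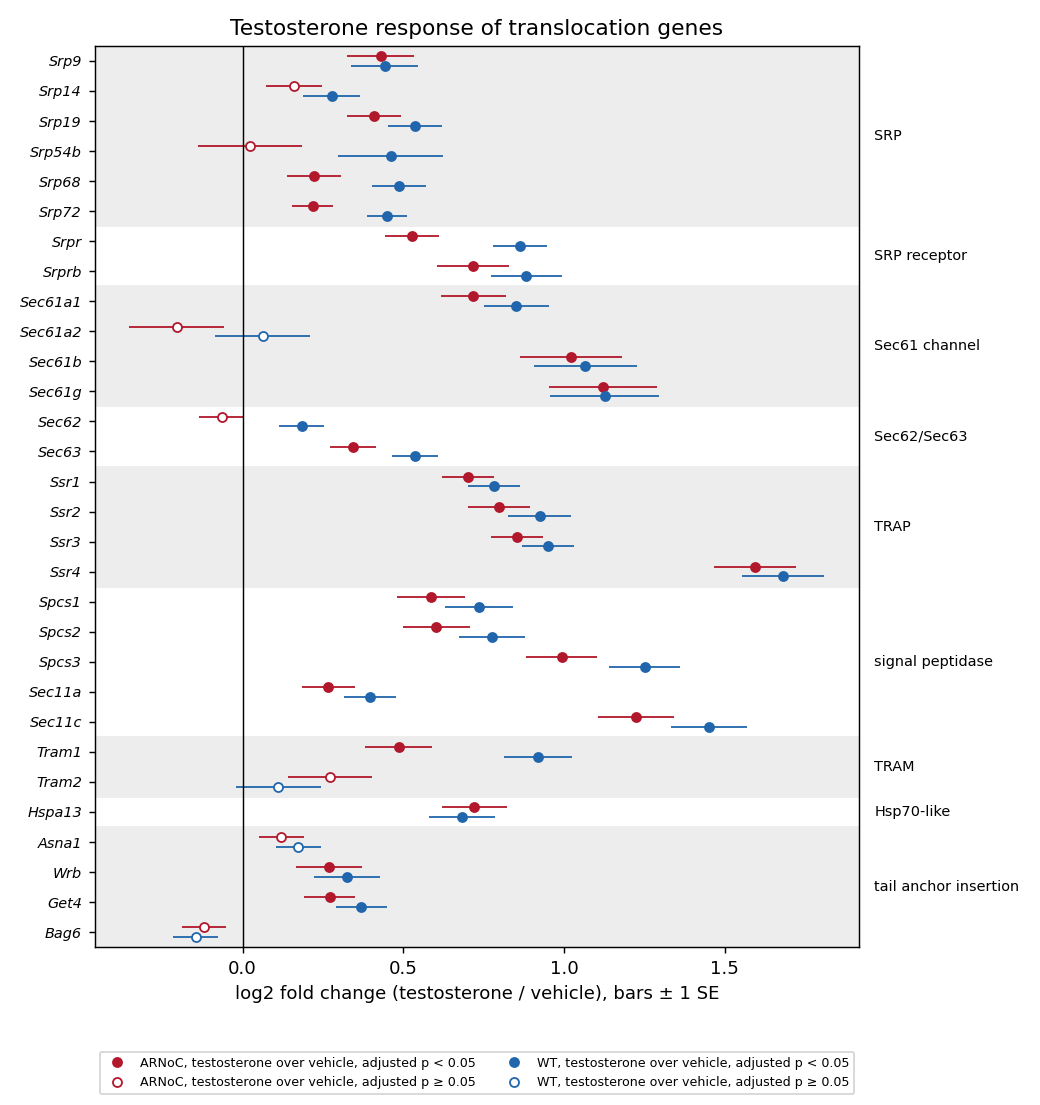
Log2 difference between testosterone and vehicle for the 30 tested members, by role (red, ARNoC; blue, WT; bars 1 SE; filled points, adjusted p under 0.05). Ssr4 and Sec11c lie farthest to the right in both genotypes, and Bag6 is left of 0 in both without being called.

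Promoters of 23 members, 24 windows in all, matched the RefSeq table (GRCm38.p6), each running from 250 bases before the annotated start to 50 bases after it. They were searched on both strands for the ER stress elements ERSE (CCAAT and CCACG with 9 bases between them) and ERSE-II (ATTGG and CCACG with 1 base between them), the unfolded-protein element core TGACGTGG, its shorter form CCACGT and a full androgen response element (AGAACA and TGTTCT with 3 bases between them). The first 3 and the last were found in 0 of the 24 windows, and in 0.119%, 0.0365%, 0.676% and 0.00913% of all 32851 promoters in the order ERSE, ERSE-II, TGACGTGG and androgen element. CCACGT lies within TGACGTGG read on the other strand and overlaps the E-box CACGTG at some sites. It was found in 8 of 24 windows, belonging to 7 members, among them Asna1, Get4, Sec63, Spcs1, Srprb and Ssr1, and in 8.31% of all promoters. Median GC content was 60.2% in the members' windows, against 52.7% in all promoters, and the part of base composition in this share was not tested. Of the windows with CCACGT on the forward strand and no E-box at 1 site or more, 4 are shown with the letters in capitals, followed by the window of Ssr4, the member with the largest response, which holds none of these motifs.
Ssr1: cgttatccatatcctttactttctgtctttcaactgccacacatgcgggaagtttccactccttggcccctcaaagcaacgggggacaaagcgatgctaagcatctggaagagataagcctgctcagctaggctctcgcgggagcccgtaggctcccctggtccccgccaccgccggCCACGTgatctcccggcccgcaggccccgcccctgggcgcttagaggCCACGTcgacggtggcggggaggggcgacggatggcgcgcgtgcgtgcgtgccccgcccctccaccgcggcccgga
Srprb: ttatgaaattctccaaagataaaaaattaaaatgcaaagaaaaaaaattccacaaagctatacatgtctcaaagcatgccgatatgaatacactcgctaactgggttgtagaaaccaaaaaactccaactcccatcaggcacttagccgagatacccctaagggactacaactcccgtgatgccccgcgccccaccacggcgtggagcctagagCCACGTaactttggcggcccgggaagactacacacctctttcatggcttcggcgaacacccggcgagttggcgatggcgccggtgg
Sec63: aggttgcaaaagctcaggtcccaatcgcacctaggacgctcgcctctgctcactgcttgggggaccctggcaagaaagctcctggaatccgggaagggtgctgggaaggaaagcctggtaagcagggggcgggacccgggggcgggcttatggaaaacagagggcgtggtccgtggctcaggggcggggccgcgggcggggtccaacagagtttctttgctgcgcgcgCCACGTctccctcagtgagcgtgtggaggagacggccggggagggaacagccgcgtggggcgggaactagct
Spcs1: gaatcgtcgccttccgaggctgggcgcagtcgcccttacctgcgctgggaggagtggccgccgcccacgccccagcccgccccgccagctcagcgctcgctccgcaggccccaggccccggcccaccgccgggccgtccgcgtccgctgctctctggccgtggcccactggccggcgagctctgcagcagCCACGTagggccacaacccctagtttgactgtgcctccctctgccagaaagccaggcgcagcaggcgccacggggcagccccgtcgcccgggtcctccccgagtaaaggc
Ssr4: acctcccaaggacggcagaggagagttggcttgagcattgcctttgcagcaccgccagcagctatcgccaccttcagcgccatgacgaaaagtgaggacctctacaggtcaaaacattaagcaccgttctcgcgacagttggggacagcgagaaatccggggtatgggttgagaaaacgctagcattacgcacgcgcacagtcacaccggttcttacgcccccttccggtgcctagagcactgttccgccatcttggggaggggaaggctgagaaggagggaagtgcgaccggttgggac
The windows lie at chr13:37994159-37994458 (Ssr1), chr9:103202016-103202315 (Srprb) and chr14:31001617-31001916 (Spcs1) on the reverse strand, and at chr10:42761246-42761545 (Sec63) and chrX:73786773-73787072 (Ssr4) on the forward strand. Counted from the start, the first C of CCACGT stands at -73 and -26 in Ssr1, -36 in Srprb, -22 in Sec63 and -60 in Spcs1. Only the site at -73 in Ssr1 overlaps the E-box among these. The log2 responses of the 6 genes named with a match ran from 0.12 (Asna1 in ARNoC, not called) to 0.88 (Srprb in WT). Ssr4, with no match, reached 1.59 in ARNoC and 1.68 in WT. Whether the responses go with the motif was not tested.

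Among the SRP genes, 4 of 6 tested in ARNoC and 6 of 6 in WT rose, all by less than 2-fold, and Srp14 in both genotypes and Srp54b, Srp68 and Srp72 in ARNoC turned negative under total-count scaling. Srp19, which readies the SRP RNA to take up Srp54, had the highest fitted difference in WT. Its normalized counts were 613, 784, 683, 635 and 598 in ARNoC with testosterone, against 494, 535, 472, 453 and 553 with vehicle. In WT they were 727, 823, 656, 754 and 699.8 with testosterone, against 486, 522, 548, 527 and 452 with vehicle. The treatments did not overlap in either genotype, and the log2 difference was 0.41 ± 0.08 in ARNoC (adjusted p = 0.000725) and 0.54 ± 0.08 in WT (adjusted p = 4.2e-05). Srp14, which with Srp9 forms the domain that slows elongation, had the smallest fitted difference of the 6 in WT. ARNoC libraries had 1393, 1608, 1224, 1289.7 and 1464 with testosterone, against 1249, 1211, 1399, 1064 and 1343 with vehicle, and the treatments overlapped. WT libraries had 1572, 1645, 1209.8, 1347 and 1310.5 with testosterone, against 1141, 1193, 1186, 1208 and 1147 with vehicle; the lowest testosterone library, replicate 3, stood just above the highest vehicle library, replicate 4. The log2 difference was 0.16 ± 0.09 in ARNoC (adjusted p = 0.166) and 0.28 ± 0.09 in WT (adjusted p = 0.0171), and the WT call was lost without WT testosterone replicate 1 (adjusted p = 0.098) or 2 (adjusted p = 0.12).

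Srp54 is the GTPase subunit that grips the signal sequence, and in mouse it is encoded by near-identical copies. Srp54a was at 0 in every library of ARNoC with testosterone and of WT with vehicle, and no other library had more than 1.44 normalized counts, so no fold is given. Srp54b shares 89.3% of its 50-base stretches with the other copies, and how reads common to the copies were counted is not stated, so its level is uncertain. It had 201, 224, 224, 179 and 229 normalized counts in ARNoC with testosterone, against 234, 194, 189, 171 and 254 with vehicle. WT with testosterone gave 234, 237, 244, 322 and 233, against 174, 267, 203, 152 and 132 with vehicle. Treatments overlapped in both genotypes, and replicate 4 stood well above the other WT libraries with testosterone. The log2 difference was 0.02 ± 0.16 in ARNoC (adjusted p = 0.929) and 0.46 ± 0.16 in WT (adjusted p = 0.0307). The WT call did not last without testosterone replicate 4 (adjusted p = 0.109) or without vehicle replicate 1 (0.064), 4 (0.0806) or 5 (0.0869). Srp9 and the S-domain pair Srp68 and Srp72 differed by 0.43, 0.22 and 0.22 in ARNoC and by 0.44, 0.49 and 0.45 in WT on the log2 scale, all called. Srp68 ran from 3314 to 4296 with testosterone, against 2817 to 3664 with vehicle in ARNoC, and its ARNoC call (adjusted p = 0.0461) was lost in 6 of 10 fits that left out 1 library. Srp72 lost its ARNoC call without testosterone replicate 5 (adjusted p = 0.0814).

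Both chains of the SRP receptor rose in both genotypes. Srpr encodes the GTPase chain that meets SRP. It had 4544, 5017, 3934, 4663 and 5130.0 normalized counts in ARNoC with testosterone, against 3269.6, 3571, 3018, 2872 and 3492 with vehicle. In WT it had 5061, 6035, 5247, 5152 and 5267 with testosterone, against 3246, 3259, 2904, 2775 and 2613 with vehicle. No testosterone library fell among the vehicle libraries, and WT replicate 2 was the highest of all 20. The rise was 1.44-fold in ARNoC (log2 0.53 ± 0.08, adjusted p = 5.43e-05) and 1.82-fold in WT (log2 0.86 ± 0.08, adjusted p = 1.23e-07). Srprb, the chain that anchors the receptor in the membrane, gave 818, 1164, 954, 901 and 978 in ARNoC with testosterone, against 605, 606, 649.8, 449 and 627 with vehicle. It gave 990.1, 1123, 819, 1044 and 1092 in WT with testosterone, against 563, 639.9, 566, 511 and 485 with vehicle. Here too the treatments stood apart, and ARNoC vehicle replicate 4 was the lowest library. Its rise was 1.64-fold in ARNoC (log2 0.72 ± 0.11, adjusted p = 3.76e-05) and 1.84-fold in WT (log2 0.88 ± 0.11, adjusted p = 3.26e-06).

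Of the channel genes, Sec61a1, Sec61b and Sec61g rose in both genotypes and Sec61a2 in neither. Sec61a1 encodes the pore. ARNoC libraries had 6958, 9158, 7588, 8055 and 8632 with testosterone, against 5033, 5679, 5083, 4326 and 4547 with vehicle. WT libraries had 7895, 9125, 7162, 9377 and 8643 with testosterone, against 5189, 5222, 4832, 4439 and 3829.9 with vehicle. All testosterone libraries were above all vehicle libraries, by 1.64-fold in ARNoC (log2 0.72 ± 0.10, adjusted p = 1.34e-05) and 1.8-fold in WT (log2 0.85 ± 0.10, adjusted p = 1.6e-06). Sec61g, the small gamma chain, had the largest fitted change of the channel genes. Its counts were 253, 251, 244, 229 and 309 in ARNoC with testosterone, against 133, 128, 119, 78.5 and 132 with vehicle. They were 271, 318, 229.5, 209 and 260.4 in WT with testosterone, against 122, 150.4, 135, 108 and 76.7 with vehicle. Separation was complete, with ARNoC vehicle replicate 4 and WT vehicle replicate 5 lowest, and the rise was 2.17-fold in ARNoC (log2 1.12 ± 0.17, adjusted p = 2.56e-05) and 2.18-fold in WT (log2 1.13 ± 0.17, adjusted p = 2.46e-05). Sec61b, the beta chain, ran from 863 to 1214 with testosterone, against 379 to 562 with vehicle in ARNoC, and from 713 to 1344 with testosterone, against 355 to 579.5 with vehicle in WT. Its log2 difference was 1.02 in ARNoC and 1.07 in WT, both called.

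Sec61a2, a second gene for the pore subunit, was low in every group. It had 239, 149, 251, 221 and 163 normalized counts in ARNoC with testosterone, against 225, 260.3, 196, 233 and 271 with vehicle. WT with testosterone had 274, 182, 275, 242 and 240.5, against 195, 227, 255, 247 and 241 with vehicle. The treatments overlapped in both, with ARNoC testosterone replicates 2 and 5 the lowest of the 20. The log2 difference was -0.21 ± 0.15 in ARNoC (adjusted p = 0.296) and 0.06 ± 0.15 in WT (adjusted p = 0.768). Under total-count scaling its fitted difference was -0.35 in WT.

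Sec62 and Sec63 join the channel for precursors that are translocated after synthesis or need help to open it, Sec63 by bringing the chaperone BiP to its lumenal side. Sec63 rose in both genotypes, though its ARNoC difference was -0.00294 under total-count scaling. Its counts were 3149, 3428, 3112, 3188 and 3530.0 in ARNoC with testosterone, against 2607, 2916, 2322, 2332 and 2813 with vehicle. In WT the libraries gave 3511, 4204, 3524, 3784 and 3489 with testosterone, against 2811, 2490.4, 2548, 2583 and 2407 with vehicle. Neither genotype showed an overlap, and the log2 difference was 0.34 ± 0.07 in ARNoC (adjusted p = 0.000877) and 0.54 ± 0.07 in WT (adjusted p = 7.19e-06). Sec62 passed the test in WT alone, and its WT difference was -0.25 under total-count scaling. ARNoC libraries had 3326, 3703, 3521, 3544 and 3721 with testosterone, against 3634, 3847, 3441, 3766 and 4021 with vehicle. WT libraries had 4211, 4628, 3485, 3830.5 and 3678 with testosterone, against 3624, 3510.1, 3702, 3504 and 3215 with vehicle. Both genotypes overlapped between treatments, and in WT replicates 1 and 2 with testosterone stood above the rest. The log2 difference was -0.06 ± 0.07 in ARNoC (adjusted p = 0.501) and 0.18 ± 0.07 in WT (adjusted p = 0.0427), and the WT call held in 2 of 10 fits that left out 1 library, with adjusted p up to 0.325 without WT testosterone replicate 2.

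The TRAP complex sits beside the channel and helps certain signal sequences to engage it. Its 4 genes rose in both genotypes, and Ssr4, the delta subunit, had the largest response of all members. Ssr4 had 5087, 6423, 4207, 5696 and 5553 normalized counts in ARNoC with testosterone, against 1633, 2047, 1822, 1503 and 1961 with vehicle. In WT libraries Ssr4 had 5927, 7245, 5005, 4636 and 5366 with testosterone, against 2051, 1765, 1733, 1826 and 1455 with vehicle. The lowest testosterone library, ARNoC replicate 3, was still well above the highest vehicle library. This was 3.02-fold in ARNoC (log2 1.59 ± 0.13, adjusted p = 8.47e-09) and 3.21-fold in WT (log2 1.68 ± 0.13, adjusted p = 4.19e-09). Ssr1, the alpha subunit, had the smallest fitted difference of the 4. It had 3899.8, 4849.9, 4902, 4595 and 4389 in ARNoC with testosterone, against 2823, 3147, 2648, 2636 and 2738 with vehicle, and 4532, 5285, 4194, 5235 and 4724 in WT with testosterone, against 2864, 3051, 2911, 2722 and 2458 with vehicle. Its libraries did not overlap between treatments, and the rise was 1.62-fold in ARNoC (adjusted p = 1.17e-06) and 1.72-fold in WT (adjusted p = 2.65e-07). Ssr2 and Ssr3, the beta and gamma subunits, rose 1.74-fold and 1.81-fold in ARNoC and 1.9-fold and 1.93-fold in WT.

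All 5 signal peptidase genes rose in both genotypes, by unequal amounts, and Sec11a alone turned negative under total-count scaling. Sec11a and Sec11c encode the alternative catalytic subunits. Sec11c counts were 6312, 7272, 5396, 6363 and 6652 in ARNoC with testosterone, against 2717, 2887, 2735, 2081 and 3329 with vehicle. WT counts of Sec11c were 6355, 7455, 5981, 5569 and 5865 with testosterone, against 2328, 2590.3, 2437, 2291 and 1823 with vehicle. Every testosterone library exceeded every vehicle library, and the rise was 2.33-fold in ARNoC (log2 1.22 ± 0.12, adjusted p = 1.04e-07) and 2.74-fold in WT (log2 1.45 ± 0.12, adjusted p = 1.13e-08). Sec11a counts were 1205, 1372, 1197, 1125 and 1186 in ARNoC with testosterone, against 1005, 1089.9, 950.0, 955 and 1075 with vehicle. WT counts of Sec11a were 1386, 1606, 1128, 1226 and 1323 with testosterone, against 1066, 1004, 1069, 1064 and 888 with vehicle. The treatments stood apart by a narrow margin, and the rise was 1.2-fold in ARNoC (log2 0.27 ± 0.08, adjusted p = 0.0142) and 1.32-fold in WT (log2 0.40 ± 0.08, adjusted p = 0.000678). The ARNoC call of Sec11a was lost without testosterone replicate 2 (adjusted p = 0.0948). Among the non-catalytic subunits, Spcs3, which the complex needs for activity, had the largest change, at 4525 to 5466 with testosterone, against 2148 to 3118 with vehicle in ARNoC. In WT, Spcs3 ran from 4751 to 6804 with testosterone, against 1857 to 2679.6 with vehicle, and its fold was 1.99 in ARNoC and 2.38 in WT. Spcs1 and Spcs2 rose 1.5-fold and 1.52-fold in ARNoC and 1.66-fold and 1.71-fold in WT.

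TRAM proteins lie next to the channel and contact the incoming chain. Tram1 had 10630.1, 12123, 8556, 11418 and 11472 normalized counts in ARNoC with testosterone, against 7699, 8033, 7138, 6538 and 9436 with vehicle. In WT it reached 11775, 13339.7, 10753, 11082 and 10837 with testosterone, against 6129.9, 6641, 6645, 5874 and 5432 with vehicle. In ARNoC the treatments overlapped, since testosterone replicate 3 lay below vehicle replicate 5, while in WT they stood apart. The rise was 1.4-fold in ARNoC (log2 0.49 ± 0.10, adjusted p = 0.00106) and 1.89-fold in WT (log2 0.92 ± 0.10, adjusted p = 9.28e-07). Tram2, a related gene linked to collagen synthesis, was low in every group. ARNoC libraries had 215, 176, 223, 193 and 215 with testosterone, against 180.4, 152, 176, 211 and 131 with vehicle, and WT libraries had 165, 157, 200.1, 236 and 174 with testosterone, against 188, 151, 155, 175 and 199 with vehicle. These overlapped in both genotypes, with log2 differences of 0.27 ± 0.13 in ARNoC (adjusted p = 0.115) and 0.11 ± 0.13 in WT (adjusted p = 0.537). With a score of stromal genes as a covariate, Tram2 was called in ARNoC (log2 0.22, adjusted p = 0.0324) and in WT (log2 0.24, adjusted p = 0.0306), and it was also called in ARNoC without vehicle replicate 4 (log2 0.36, adjusted p = 0.0464). Under total-count scaling its fitted differences were -0.08 in ARNoC and -0.31 in WT.

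Hspa13 encodes an Hsp70-like ATPase of microsomes. It had 850.3, 1050.1, 1055, 1030.0 and 974 normalized counts in ARNoC with testosterone, against 564, 707, 532, 680.0 and 542 with vehicle. WT libraries gave 841, 1133, 927, 1049 and 983 with testosterone, against 707, 669.5, 625, 586 and 505 with vehicle. The treatments did not overlap, and the rise was 1.65-fold in ARNoC (adjusted p = 1.3e-05) and 1.61-fold in WT (adjusted p = 2.38e-05).

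Among the tail-anchor genes, Get4 and Wrb rose in both genotypes, though both turned negative under total-count scaling, and Asna1 and Bag6 passed the test in neither. Get4, which bridges Bag6 to Asna1, had 714, 762, 650.0, 623 and 668 in ARNoC with testosterone, against 549, 616, 614, 483 and 579.7 with vehicle. In WT, Get4 had 688, 672, 588, 632 and 637 with testosterone, against 494, 552, 517, 503 and 436 with vehicle. Its treatments were separate in both genotypes, with a log2 difference of 0.27 ± 0.08 in ARNoC (adjusted p = 0.0108) and 0.37 ± 0.08 in WT (adjusted p = 0.00102), and its ARNoC call was lost without testosterone replicate 2 (adjusted p = 0.0558). Asna1, the targeting ATPase, had 903, 986, 755, 870.4 and 870.0 in ARNoC with testosterone, against 784, 785, 903, 759 and 819 with vehicle. WT libraries had 839, 955, 875, 780.0 and 848 of Asna1 with testosterone, against 722, 780.4, 798, 803 and 725 with vehicle. The treatments overlapped, at log2 0.12 ± 0.07 in ARNoC (adjusted p = 0.192) and 0.17 ± 0.07 in WT (adjusted p = 0.0563). Bag6, the chaperone that shields the anchor in the cytosol, was the one member with a negative fitted difference in both genotypes under trimmed-mean scaling, called in neither. ARNoC libraries had 1967, 2430.2, 1976, 1965 and 2020.2 of Bag6 with testosterone, against 2198, 2094, 2586, 2131 and 2285 with vehicle, where testosterone replicate 2 was the second highest of the 10 libraries. WT libraries had 2185, 2127, 1998, 2184 and 1969 of Bag6 with testosterone, against 2285, 2414, 2380.2, 2158 and 2407 with vehicle. The log2 difference was -0.12 ± 0.07 in ARNoC (adjusted p = 0.192) and -0.15 ± 0.07 in WT (adjusted p = 0.101), and the gene was called lower in WT without testosterone replicate 1 (adjusted p = 0.0411), 2 (0.0476) or 4 (0.0437), and in ARNoC in 1 of 10 such fits. Wrb differed by 0.27 in ARNoC (adjusted p = 0.0439) and 0.32 in WT (adjusted p = 0.0159) and lost its ARNoC call in 7 of 10 fits that left out 1 library and its WT call without testosterone replicate 2 (adjusted p = 0.0538) or 4 (adjusted p = 0.053). Caml, which RefSeq treats as Camlg, the partner of Wrb, differed by 0.14 in ARNoC (adjusted p = 0.357) and 0.04 in WT (adjusted p = 0.793) and is not counted among the members.

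**Figure D2:**
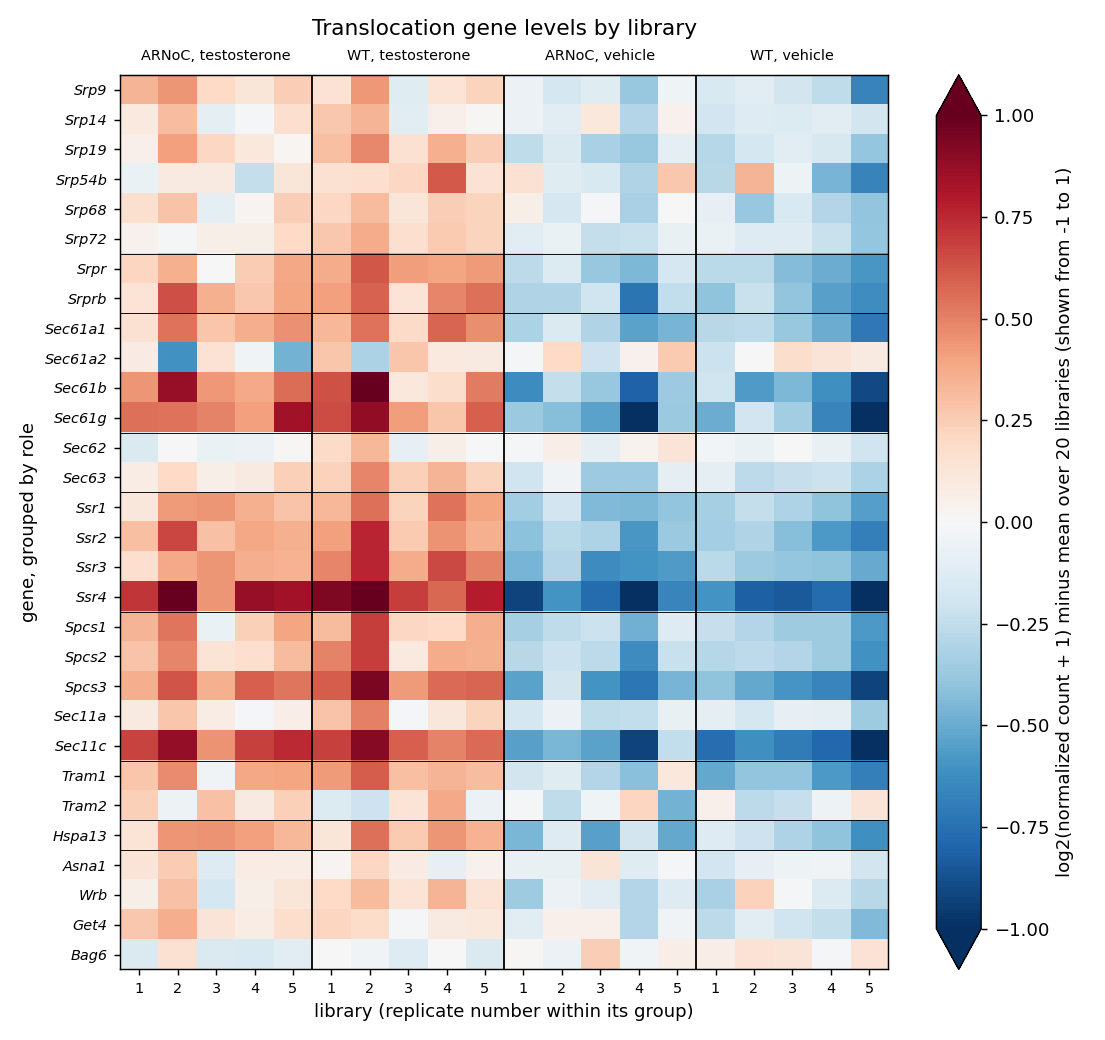
Log2(normalized count + 1) of each tested member (rows, by role) in each of the 20 libraries (columns, by group), as the difference from its mean over all libraries (red above, blue below, shown from -1 to 1). Most rows are red in the testosterone columns and blue in the vehicle columns, while Sec61a2, Sec62, Tram2, Asna1 and Bag6 show little contrast.

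The alternative subunits were compared within each library as log2 ratios of normalized counts plus 1, with two-sided exact permutation tests of 5 against 5 libraries, which can give no p below 0.00794, adjusted over the 12 tests. The Sec11c/Sec11a ratio averaged 2.39 ± 0.13 in ARNoC with testosterone, against 1.42 ± 0.19 with vehicle (SD, n = 5 each). In WT it averaged 2.23 ± 0.10 with testosterone, against 1.16 ± 0.12 with vehicle. The treatments did not overlap, and the balance was higher by 0.97 in ARNoC and 1.06 in WT (exact permutation test, adjusted p = 0.0238 in each). The Sec61a2/Sec61a1 ratio was lower with testosterone in ARNoC, where the difference was -0.95 (adjusted p = 0.0238, exact permutation test) with no overlap. In WT the difference was -0.80 (adjusted p = 0.0381, exact permutation test), and it lost its call in 8 of the 10 sets that left out 1 library. Over the 10 sets, in which the smallest possible p is higher, the WT difference ran from -0.90 to -0.67. The Tram2/Tram1 ratio averaged -5.72 ± 0.31 in ARNoC with testosterone, against -5.51 ± 0.46 with vehicle, a difference of -0.21 (adjusted p = 0.514, exact permutation test). WT gave -5.96 ± 0.34 with testosterone, against -5.14 ± 0.29 with vehicle, a difference of -0.82 (adjusted p = 0.0238, exact permutation test). Between genotypes none of the 6 ratio tests passed, the nearest being Sec11c/Sec11a with vehicle, higher in ARNoC by 0.26 (adjusted p = 0.0794, exact permutation test).

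**Figure D3:**
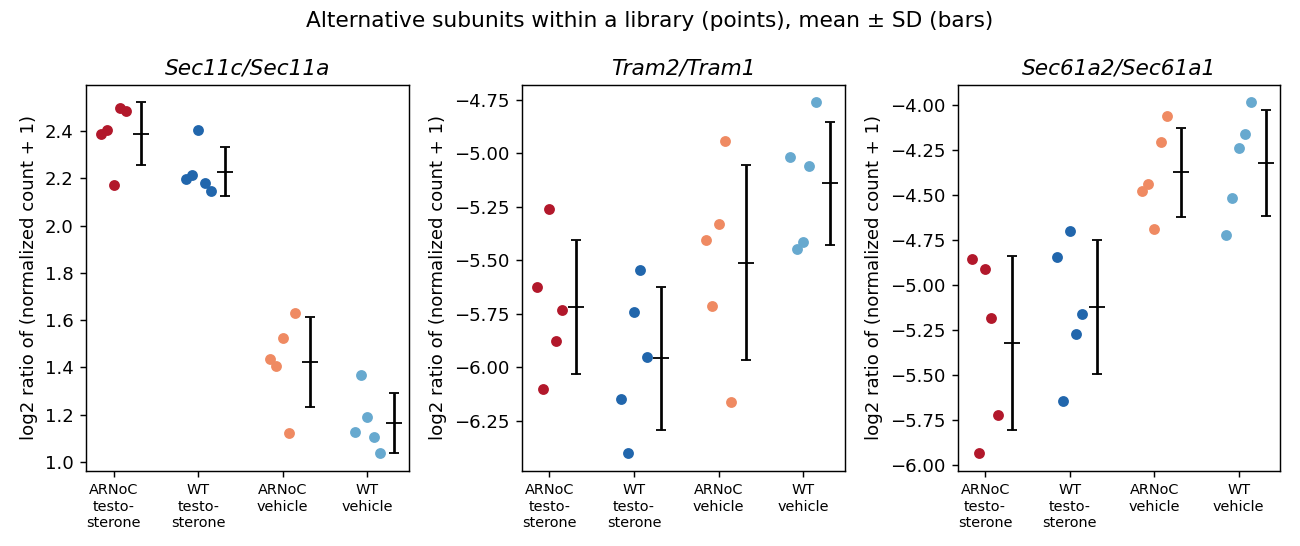
Log2 ratios within each library for Sec11c/Sec11a, Tram2/Tram1 and Sec61a2/Sec61a1 (points, libraries; bars, mean and SD of 5). With testosterone the first ratio is above and the last below its vehicle level in both genotypes, and the Tram ratio separates the treatments in WT.

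Whether the response depends on genotype was tested as the ARNoC response minus the WT response. None of the 30 members was called, and 0% of all genes were (DESeq2 called 29 genes, of which 0 were members). The fitted response was smaller in ARNoC for 27 of 30 members, with a median difference of -0.13, whereas 7471 of all 15261 genes were negative and their median was 0.01. At an unadjusted p under 0.05 there were 5 members and 1306 of all genes. The 5 were picked out here after their values were seen. Tram1 differed by -0.43 (95% interval -0.74 to -0.13, unadjusted p = 0.00815, adjusted p = 0.438). Srpr differed by -0.34 (-0.58 to -0.09), Srp68 by -0.27 (-0.51 to -0.02), Sec62 by -0.25 (-0.45 to -0.04) and Srp72 by -0.23 (-0.42 to -0.04), with adjusted p of at least 0.454. The number of negative members was 22 under total-count scaling, 22 with the stromal score as a covariate and 23 to 28 when 1 library was left out, with the lowest count without WT testosterone replicate 2. The median difference was -0.05 under total-count scaling, -0.03 with the stromal score and -0.07 without WT testosterone replicate 2.

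**Figure D4:**
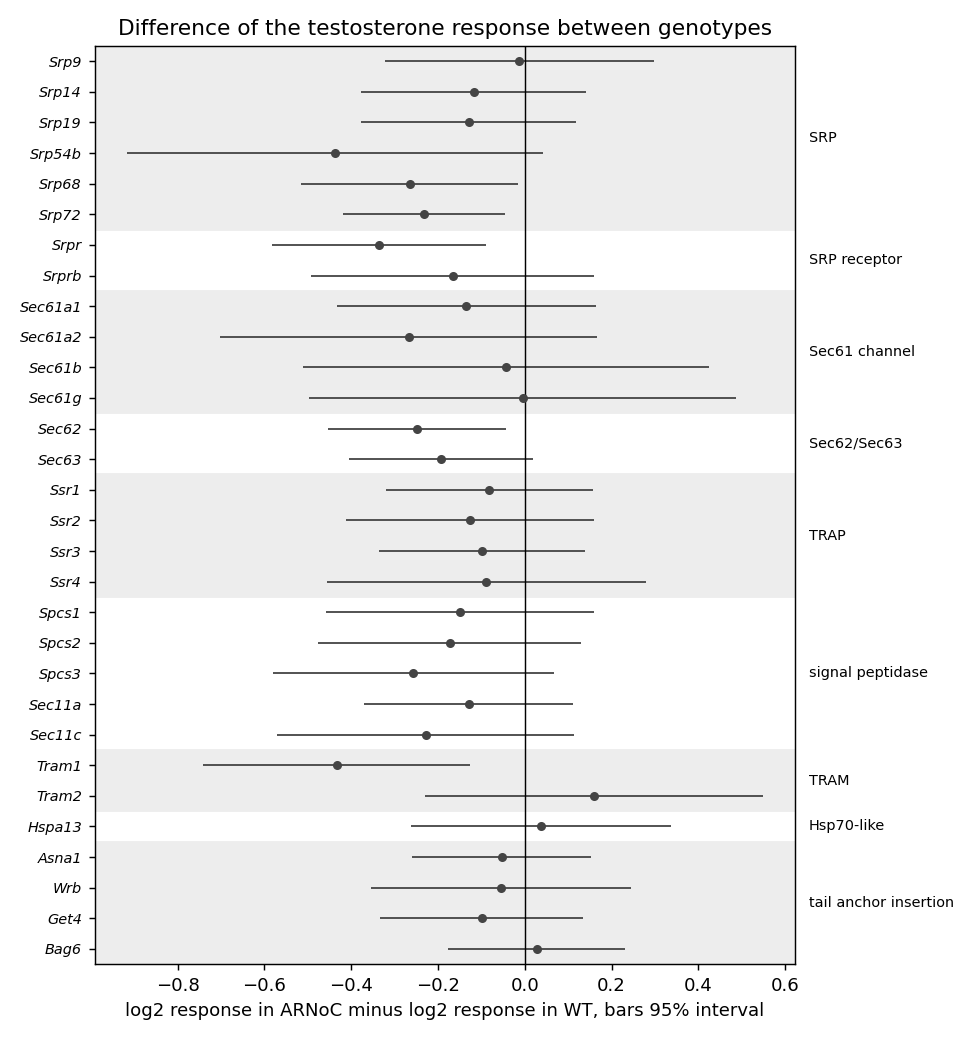
Difference of the log2 testosterone response between genotypes (ARNoC minus WT) for the 30 tested members, with 95% intervals. Most points lie left of 0, and 5 intervals, those of Srp68, Srp72, Srpr, Sec62 and Tram1, do not reach it.

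Set directly against WT, ARNoC prostates had no member called under either treatment. With testosterone, where 1.69% of all genes were called, 23 of 30 members were lower in ARNoC by the fitted value, with a median log2 difference of -0.08, where 47.7% of all genes were lower. An unadjusted p under 0.05 was found for Srp72, Srpr, Sec62, Sec63 and Ssr3, named after their values were seen, with log2 differences of -0.18, -0.20, -0.15, -0.17 and -0.21 and adjusted p of at least 0.169. These 5 of 30 lie near the 14.7% of all genes that had such a p. Srp54b was the one member whose 5 ARNoC libraries all lay below the 5 WT libraries, as 2.33% of all genes did. With vehicle, where 0.321% of all genes were called, 24 members were higher in ARNoC by the fitted value, with a median of 0.07, where 50.3% of all genes were higher. Tram1 was higher by 0.34 ± 0.10 (unadjusted p = 0.0036, adjusted p = 0.249), at 6538 to 9436 normalized counts in ARNoC, against 5432 to 6645 in WT. Sec11c, Get4 and Srp68 followed at 0.27, 0.19 and 0.18, each with an unadjusted p under 0.05 and an adjusted p of at least 0.553, and 7.49% of all genes had such an unadjusted p. With the stromal score as a covariate 2 members were called with vehicle, Tram1 (log2 0.33, adjusted p = 0.0134) and Sec11c (log2 0.26, adjusted p = 0.0459). DESeq2, limma-voom and the other scalings called none in either comparison.

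Levels of different genes can be compared only per length, here as normalized counts per kb of the exons annotated in GENCODE M21. Tram1 was the highest member, at 3428 ± 437 per kb in ARNoC and 3655 ± 339.8 in WT with testosterone, against 2457 ± 345 in ARNoC and 1943 ± 164 in WT with vehicle (SD, n = 5). Ssr3 and Ssr4 came next with testosterone, at 1774 ± 122 and 1742 ± 264 in ARNoC and 2063 ± 223 and 1820.4 ± 329 in WT, and these neighbours lay within their spread of each other. With vehicle Ssr4 stood at 579 ± 72.8 in ARNoC and 570.4 ± 69 in WT, well under Ssr3 at 987 ± 97.5 in ARNoC and 1073 ± 62.1 in WT. The channel chains were far apart per kb: with testosterone Sec61a1 had 1254 ± 135, Sec61b 754 ± 199.7 and Sec61g 105 ± 17 in WT. With testosterone Tram2, Sec61a2 and Srp54b were the lowest tested members, at 28 ± 4.84, 53 ± 8.29 and 56.3 ± 8.47 per kb in WT. With vehicle Sec61g joined them, at 47.9 ± 9.29 per kb in ARNoC and 48.1 ± 11.4 in WT. Lengths taken from the longest transcript changed 102 of 124 group levels by more than their spread. The order of the 30 genes correlated with the first at a Spearman rho of 0.966 to 0.982, a description across genes. Tram1 stayed highest on these lengths, but the places below it changed. With testosterone Sec61a1 then had 2547, Ssr3 2503, Ssr2 2226 and Ssr4 2100 per kb in ARNoC. In WT with testosterone Ssr3 had 2911, Sec61a1 2661, Ssr2 2304 and Ssr4 2195.

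**Figure D5:**
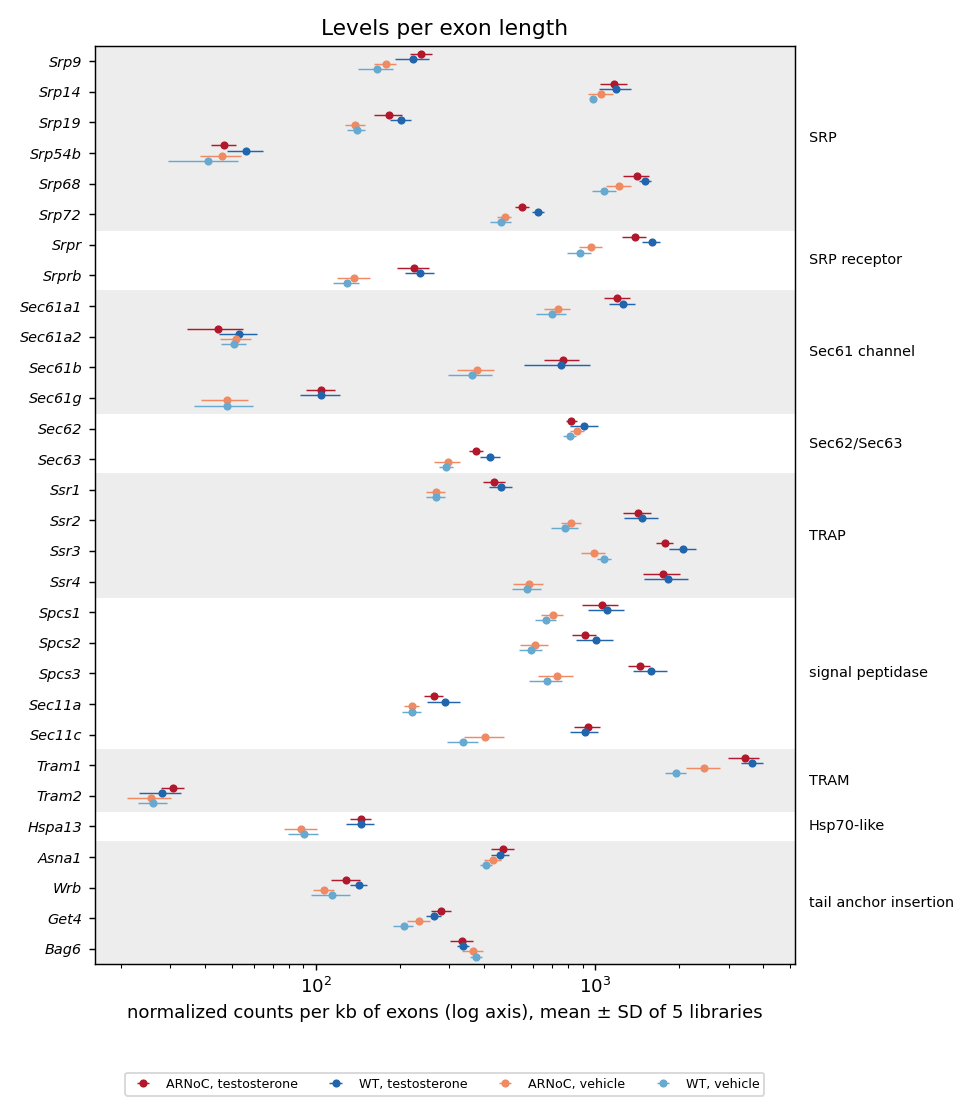
Normalized counts per kb of exons for the 30 tested members, on a log axis (mean and SD of 5 libraries for each of the 4 groups). Tram1 is highest and Tram2 lowest in each group, and Ssr4 and Sec11c show the widest gap between testosterone and vehicle.

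Most members moved together across libraries. Over the 20 libraries the median Pearson r between members was 0.81 on log2 values, and after group means were removed it was 0.54, a description whose points share library scaling and cell make-up. Bag6 and Sec61a2 were the exceptions over the 20 libraries, with a negative median r of -0.42 and -0.26, and Tram2 had 0.13. Sec61a2 and Tram2 went against the others within groups, with median r of -0.37 and -0.59, and Srp54b, Bag6 and Hspa13 had the next lowest median r, at 0.29, 0.28 and 0.25. Within groups, WT testosterone replicate 2 stood highest, with 27 of 30 members above their group mean and a mean log2 deviation of 0.17, and ARNoC testosterone replicate 2 followed at 0.13. WT vehicle replicate 5 and ARNoC vehicle replicate 4 stood lowest, with 3 of 30 members above the group mean each and deviations of -0.19 and -0.17. The stromal score ran the other way in these libraries, lowest of its group in both replicates 2 (6.80 in ARNoC and 5.77 in WT with testosterone) and highest of its group in the other two (8.39 in ARNoC replicate 4 and 8.18 in WT replicate 5 with vehicle). WT testosterone replicate 3 also had 3 of 30 members above its group mean, with a deviation of -0.13, but its stromal score of 7.26 was below that of replicate 4, at 7.54. The part of stroma in these deviations was not tested. The log2 responses of the 30 members correlated between ARNoC and WT at a Pearson r of 0.95 and a Spearman rho of 0.92, across genes, from separate libraries.

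Other genes of the pathway came from a list of 33 symbols, of which 31 were in the table and 30 were tested. In ARNoC 16 of them rose and 3 fell, where over all genes 19.4% were called higher and 16.8% lower. In WT 17 rose and 3 fell, where over all genes 20.4% were called higher and 18.8% lower. Under total-count scaling 9 rose and 9 fell in ARNoC, where 1178 of all 15261 genes were called higher and 7548 lower. On that scale 8 rose and 13 fell in WT, where 1099 of all genes were called higher and 9120 lower. All 5 lumenal chaperones and cochaperones rose in both genotypes. Among them Hspa5, the chaperone BiP that pulls chains through the channel, differed by 1.87 in ARNoC (adjusted p = 5.42e-07) and 2.04 in WT (adjusted p = 1.74e-07) on the log2 scale. Sil1, which exchanges the nucleotide of BiP, had the smallest of the 5 differences in both genotypes, at 0.75 in ARNoC and 0.88 in WT. Serp1, a small protein bound to Sec61, differed by 1.01 in ARNoC and 1.40 in WT. Of the 10 ER membrane complex genes, which insert certain membrane proteins, 4 rose in both genotypes (Emc4, Mmgt1, Emc7 and Emc8). Emc6 fell in WT, at -0.33 (edgeR adjusted p = 0.0353), with 0.02 in ARNoC (edgeR adjusted p = 0.896). Of the 4 that rose, Mmgt1 alone was called higher in both genotypes under total-count scaling. On that scale Emc8 was called higher in ARNoC only, Emc7 in neither, and Emc4 turned negative. Naca, the nascent chain factor that keeps SRP off unsuited ribosomes, fell in both genotypes, by 0.32 in ARNoC and 0.29 in WT. Of the 3 rough ER sheet genes, Ktn1 fell by 0.43 in ARNoC and 0.27 in WT, and Ckap4 was called in neither. Rrbp1, the third, rose by 0.34 in ARNoC and 0.50 in WT, but stood at -0.00899 and 0.08 under total-count scaling, uncalled. The Sec61-associated Tmco1 fell in ARNoC alone by the test, by 0.16, with -0.07 in WT. No listed gene was called in the interaction.

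Markers of the cells in the tissue also differed between treatments. The 7 ventral epithelial markers in the table summed to 1626724 to 2096129 normalized counts in ARNoC and 2096180.5 to 3343844 in WT with testosterone, against 333615 to 681450 in ARNoC and 459331 to 574352 in WT with vehicle. This sum follows its most abundant genes and does not count cells. In each genotype 5 of the 7 were called higher, while 2 were called lower in ARNoC (Krt8 and Krt18) and 1 in WT (Krt8). Krt8, a luminal keratin, ran from 4063.5 to 5344 in ARNoC and 4392 to 5784 in WT with testosterone, against 5408 to 6908 in ARNoC and 5031 to 7074 in WT with vehicle. Its adjusted p in the edgeR test was 0.00321 in ARNoC and 0.0246 in WT. The 7 myeloid markers summed to 1918 to 3469 in ARNoC and 1041 to 2481 in WT with testosterone, against 1942 to 9343 in ARNoC and 2130.4 to 13546 in WT with vehicle. Of these 7, 6 were called lower in ARNoC (median log2 difference -1.20) and 7 in WT (median -2.06). Over all genes 16.8% were called lower in ARNoC and 18.8% in WT. The 6 lymphocyte markers summed to 31.6 to 48.9 in ARNoC and 15.3 to 52.4 in WT with testosterone, against 57.4 to 139.5 in ARNoC and 69.1 to 151.9 in WT with vehicle. Of the 4 lymphocyte markers tested, 2 were called lower in each genotype. Of the plasma cell markers, whose cells are rich in ER, 4 were in the table, and they summed to 2645 to 6607 in ARNoC and 1438 to 10359 in WT with testosterone, against 538 to 6981 in ARNoC and 3840.4 to 16925 in WT with vehicle. Their defining gene Tnfrsf17 did not exceed 10.7 in any library, and of the 3 that were tested only Derl3, an ER degradation factor of other secretory cells too, was called higher. The summed level of the 12 stromal markers overlapped between all groups, but single genes were called both ways. The smooth muscle genes Acta2, Cnn1, Des and Actg2 rose and Lum fell in ARNoC, while Actg2 rose and Col1a1, Col3a1 and Lum fell in WT. Of the 5 endothelial markers, Pecam1 and Egfl7 fell in WT and none was called in ARNoC. Of the 4 basal epithelial markers, Krt5 and Trp63 fell in ARNoC and Krt14 fell in WT. The part of cell make-up in the responses was not tested. The stromal score averages the 12 stromal markers, some of which were called in opposite directions, and covers no other cell type. With that score as a covariate 25 members were called higher in ARNoC, where 22.5% of all genes were, and 26 in WT, where 20.3% were.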

How the data were processed

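Total RNA of ventral prostate was sequenced from Illumina TruSeq libraries, per the labels' protocols. The count values that the authors deposited are whole reads assigned to each gene symbol. Per the submitters' processing notes, FastQC 0.11.7, HISAT2, SAMtools 1.5, HTSeq and DESeq2 were used with build mm10, and the annotation, strand setting and filters are not described there. The authors' signal values are normalized counts, that is counts divided by size factors, and the deposited ratio values are those size factors. Counts divided by the deposited size factors differed from the deposited normalized counts by at most 4.66e-09. All columns were matched to samples, with 0 left over. Groups came from the labels' descriptions, and replicates were numbered in accession order. No 2 replicates agreed within sampling noise (chi-square per degree of freedom 7.97 to 42.7 over 40 pairs).

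The members and lists were chosen with earlier results of these data known. A gene was tested if 5 or more of the 20 libraries had 10 or more normalized counts of it, as 15261 of 43472 did. Counts were scaled by trimmed means of M-values and fitted in edgeR 4.0.16 (R 4.3.3) with 1 mean per group, the quasi-likelihood F-test and Benjamini-Hochberg adjustment at 0.05, with a common biological variation coefficient of 0.214. Totals of 8861646 to 21600352 counts limit the precision. Alternatives were DESeq2 1.42.0, limma-voom 3.58.1, other scalings and filters, the compared groups alone, each library left out, a stromal covariate, both stroma-poor vehicle libraries (WT replicate 2 and ARNoC replicate 5) left out, and the Srp54 copies summed. The stromal score is the mean log2 level of the stromal markers. Lengths and coordinates are from GENCODE M21, promoters from RefSeq. Full library values are given for the largest and smallest WT responders of each role, for members not called in a response and for the alternative subunits. The sequence of 1 promoter window and the values of 1 marker gene are not reported here.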

Additional observations from a re-analysis of the deposited data

Results flagged for a closer look

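In 9 of 122 member and group combinations (7.38%), the highest or lowest of the 5 libraries stood apart from the other 4 by more than 0.71 of the group's range, a gap that chance gives in about 1 in 20 groups. ARNoC vehicle replicate 4 was low for 3 genes: Srprb had 449 normalized counts there (605 to 649.8 in the other 4), Sec61g had 78.5 (118.6 to 133) and Spcs2 had 2057 (2625 to 2748). WT vehicle replicate 5 was low for Srp9, at 689, beside 917 to 1009.8 in the others. ARNoC testosterone replicate 2 was high for Ssr2, at 3171 (2446 to 2611 in the others), and for Bag6, at 2430.2 (1965 to 2020.2). WT testosterone replicate 2 was high for Srpr, at 6035 (5061 to 5267). WT testosterone replicate 4 was high for Srp54b, at 322 (233 to 244), and held the 1.17 normalized counts of Srp54a where the other 4 were at 0. These libraries were kept in all tests, and the cause of their position was not tested.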

How the results depend on the processing

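Over the settings that kept all libraries or dropped the stroma-poor pair, members called in either direction numbered 19 to 25 in ARNoC. In WT they numbered 18 to 26. Members called higher numbered 14 to 25 in ARNoC and 15 to 26 in WT, with the fewest under total-count scaling. Over the same settings 1178 to 3428 of all genes were called higher in ARNoC and 1099 to 3221 in WT. Leaving out 1 library gave 20 to 23 members called in ARNoC and 24 to 26 in WT. Of these, 19 to 23 in ARNoC and 23 to 26 in WT were called higher. Under total-count scaling the fitted log2 response turned negative for Srp14 (-0.19), Srp54b (-0.32), Tram2 (-0.081), Srp68 (-0.13), Srp72 (-0.13), Sec63 (-0.00294), Sec11a (-0.080), Asna1 (-0.23), Wrb (-0.079) and Get4 (-0.077) in ARNoC. In WT it did so for Srp14 (-0.15), Sec61a2 (-0.35), Tram2 (-0.31), Sec62 (-0.25), Sec11a (-0.033), Asna1 (-0.25), Wrb (-0.10) and Get4 (-0.054). That scaling lowers all genes alike in libraries whose leading genes hold more counts. Of all genes tested it called 1178 higher and 7548 lower in ARNoC, against 2962 and 2565 with trimmed means, and 1099 higher and 9120 lower in WT, against 3114 and 2871. The stromal covariate gave 2 calls between genotypes with vehicle, where 0 were called otherwise, and 103 calls over all genes, against 49. Without both stroma-poor vehicle libraries the WT difference of Sec61a2/Sec61a1 was -0.85 (adjusted p = 0.0762, exact permutation test), and with 1 library left out it was -0.90 to -0.67. Between genotypes with vehicle, leaving out 1 library gave 0.21 to 0.33 for Sec11c/Sec11a, called without ARNoC replicate 4, and -0.15 to 0.034 for Sec61a2/Sec61a1. The cause of these changes was not tested. No paired analysis was possible because replicate numbers follow accession order and the labels pair no libraries. Srp54a had too few counts to test, and the parts of depth and of reads shared with the other copies in this were not tested.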

Other observations

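H13, the mouse symbol for the signal peptide peptidase Hm13, which cuts up spent signal peptides inside the membrane, was found in the table after the list of pathway genes had been made, and so stands outside its counts. It had 3368, 4375, 3012, 3342 and 3841 normalized counts in ARNoC with testosterone, against 2103, 2281, 2205, 1791 and 2171 with vehicle. In WT it ran from 3338 to 4553 with testosterone, against 1732 to 2211 with vehicle. The treatments did not overlap, and the log2 difference was 0.77 ± 0.10 in ARNoC (adjusted p = 4.26e-06, edgeR quasi-likelihood test) and 0.93 ± 0.10 in WT (adjusted p = 3.69e-07), which lies among the values of the TRAP and signal peptidase genes.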
